A study of Homo sapiens with 19 samples.

Results

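The genes described are the mesenchymal cadherins CDH2 and CDH11, the intermediate filament gene VIM, and 7 transcription factors of the epithelial-mesenchymal transition (EMT), ZEB1, SNAI1, SNAI2, TWIST1, PRRX1, FOXC1 and WT1. They were chosen by name, and every probe set that the platform annotation gives to 1 of them alone was taken. This gave 14 of the 22283 probe sets on the array, for 9 of the 10 genes, out of 11963 genes that the annotation names. FOXC1 is named only. Messenger RNA was profiled in 19 cell lines, with 1 array each of 1 origin, the human breast cancer cell line MDA-MB-231. The series addresses, by its title, spontaneous doubling of ploidy and its relation to metastatic capacity. The groups were 4 strongly bone-metastatic lines (1833, 2274, 2268 and 2269) and 3 weakly bone-metastatic lines (2293, 2295 and 2296), then 4 strongly lung-metastatic lines (4142, 4173, 4175 and 4180) and 3 weakly lung-metastatic lines (SCP21, SCP6 and SCP26). Hyperploid and modal-ploid sublines had been derived from line 1833 and from line 4175, 1 of each, and the last array was of parental MDA-MB-231. No treatment is given for any group beyond culture with unnamed selective drugs, and cells were harvested before confluence. For the line titled 2296, the characteristics and the series' text have the name 2297. Each line stands for itself, so a p-value measures the spread between lines of 1 tumour origin.

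In an EMT, epithelial cells lose the adherens junctions that E-cadherin holds together, gain N-cadherin or cadherin-11, fill their cytoskeleton with vimentin and become motile. The factors of the SNAIL, ZEB and TWIST families drive the change and bind E-boxes, short palindrome-like DNA motifs found, among other places, in the E-cadherin promoter. MDA-MB-231 is known as a mesenchymal-like line with vimentin and without appreciable E-cadherin, and carcinoma cells of this kind are widely used to study metastasis to bone and lung.

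The deposited values are linear ratios. They fall into an array set of the 10 arrays of parental, bone and 1833-derived lines and a set of the 9 arrays of lung and 4175-derived lines, and ratios were compared only between arrays of the same set. Where an array signal is given, it was recovered from the ratios as described in the processing notes, and it is not comparable between probe sets. A probe set is called dim on an array where its signal was at or below that array's 40th percentile. Differences are log2 ratios, tested with limma on the 12 of the 14 probe sets that were above that level on at least 2 arrays, with p-values adjusted over all 16279 probe sets that were. The arrays of the 4 ploidy sublines had a lower trimmed mean signal (321.6 to 359.3) than the other 15 (496.9 to 497.6). Biotin-labelled spike-in controls averaged 11.1 to 11.4 log2 units in strong bone lines and 11.2 to 11.4 in weak bone lines, 10.2 to 10.7 in strong lung lines and 9.94 to 10.5 in weak lung lines, and 9.32 to 9.66 in the ploidy sublines, against 11.2 in the parental line. These levels moved with organ and with ploidy subline, so array handling cannot be told apart from either. The 6 carcinoma and epithelial marker genes checked were above the 40th percentile on every array. PTPRC (leukocytes), CDH5, VWF and TIE1 (endothelium) and LUM and FAP (fibroblasts) were above it on none. Other genes of these lists were above it on at least 1 array of each group. Depending on the group, they were 4 to 6 of 8 leukocyte, 1 to 3 of 7 endothelial and 4 to 6 of 9 fibroblast genes.

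Vimentin, SNAI2 and 2 of the 3 ZEB1 probe sets were above their array's 40th percentile on all 19 arrays. The third ZEB1 probe set (210875_s_at) was above it on 17. The CDH11 probe sets were above it on 18 (207173_x_at) and 17 arrays (207172_s_at), PRRX1 on 14 and the CDH2 probe set 203441_s_at on 10. WT1 was above it on 8 (206067_s_at) and 5 arrays (216953_s_at), and SNAI1 on 3. TWIST1 was above it on 1 array, the weak bone line 2293, and the other CDH2 probe set (203440_at) on 0. So VIM, SNAI2, ZEB1 and CDH11 lay above this percentile in nearly all lines, PRRX1, CDH2 and WT1 in some, and SNAI1 and TWIST1 in few. The percentile is a rank that most probe sets of any array exceed by definition, and it is not a call of presence or absence.

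**Figure D1:**
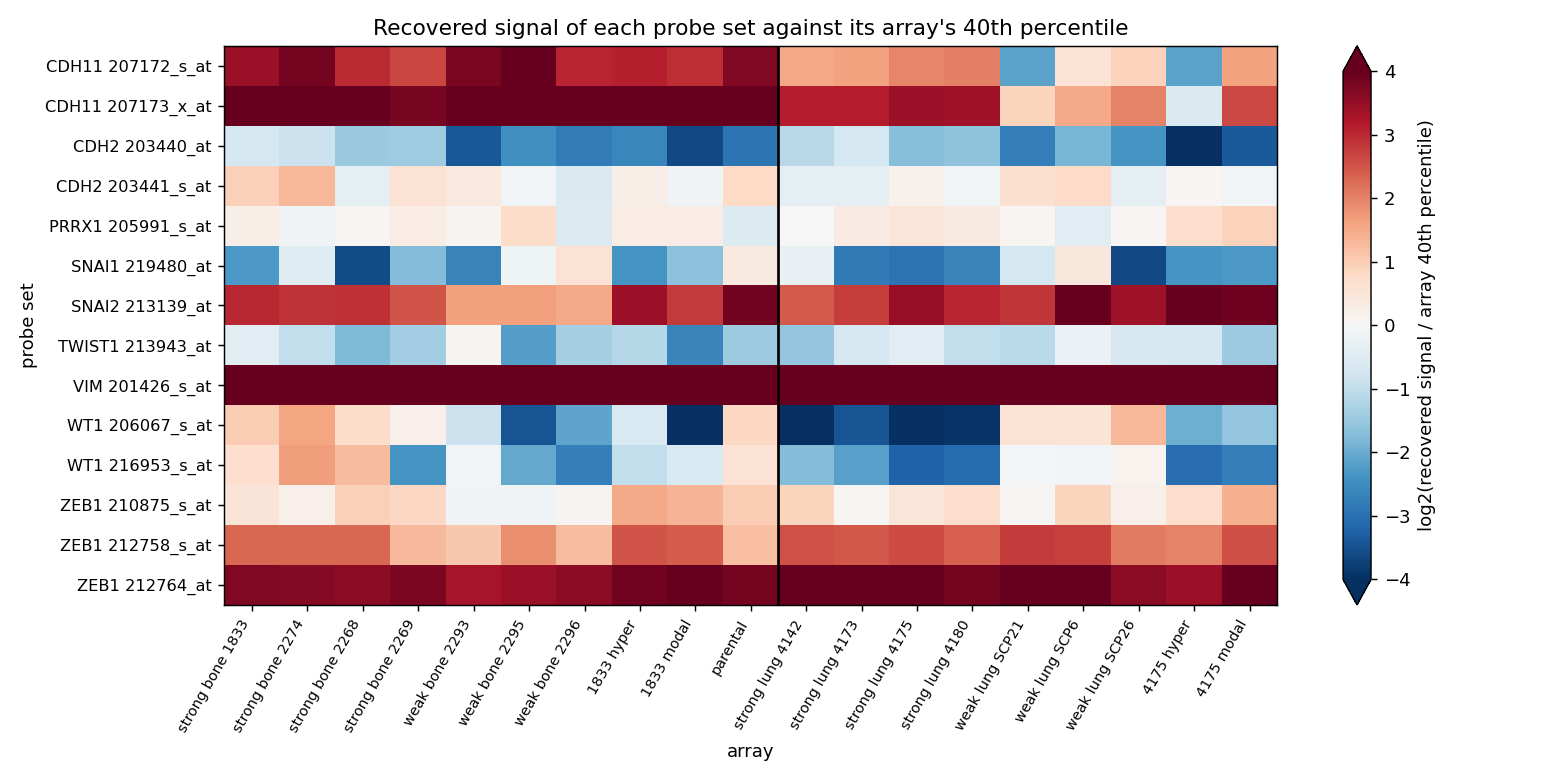
Recovered signal of the 14 probe sets on each array, divided by that array's 40th percentile of signal and shown on a log2 colour scale that ends at -4 and 4, with probe sets down the page and arrays by group across it. VIM, SNAI2 and 2 ZEB1 probe sets lie above the 40th percentile on all 19 arrays, WT1 206067_s_at lies above it in strong bone lines, weak lung lines and the parental line only, and the CDH2 probe set 203440_at lies below it on all 19.

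WT1, a zinc finger transcription factor best known from kidney development and Wilms tumour, showed opposite differences in the 2 organs. It was higher in strong than in weak bone lines and lower in strong than in weak lung lines. The gene lies on the minus strand at chr11:32387775-32435539 (GRCh38.p14). Because WT1 was the member that passed the test in both organs and SNAIL, ZEB and TWIST factors bind E-boxes, 2 of its 4 promoter windows are shown, the first that hold an E-box, each from 250 bases before to 50 after a transcript start, from RefSeq on GRCh38.p14. They are written 5′ to 3′ on the minus strand, with capitals marking every CANNTG, the general E-box, which reads the same as CANNTG on the other strand.
WT1 chr11:32435490-32435789: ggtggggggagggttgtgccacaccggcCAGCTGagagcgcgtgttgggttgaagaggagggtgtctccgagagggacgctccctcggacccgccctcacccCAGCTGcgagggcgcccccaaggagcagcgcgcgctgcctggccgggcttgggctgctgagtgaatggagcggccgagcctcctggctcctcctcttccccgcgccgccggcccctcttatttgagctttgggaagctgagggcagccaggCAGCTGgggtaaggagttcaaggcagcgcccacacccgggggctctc
WT1 chr11:32433991-32434290: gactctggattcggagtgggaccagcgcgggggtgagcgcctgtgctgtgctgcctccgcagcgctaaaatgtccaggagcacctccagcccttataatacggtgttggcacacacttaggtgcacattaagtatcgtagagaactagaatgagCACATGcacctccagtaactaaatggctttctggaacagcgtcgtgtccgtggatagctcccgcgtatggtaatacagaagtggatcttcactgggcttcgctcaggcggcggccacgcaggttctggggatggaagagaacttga
The first window holds CAGCTG at positions -222, -148 and 3 relative to the start base (position 0), and the second holds CACATG at -96. CANNTG occurs in 68.7% of the 35116 RefSeq promoter windows of 300 bases, and its variant CAGGTG, read on either strand as CAGGTG or CACCTG, in 20.6%. Of the 4 WT1 windows 0 hold CAGGTG or CACCTG. The promoter table held 6 of the 10 genes, and among these ZEB1 had CAGGTG or CACCTG once in 1 of its 7 windows and 3 times in another. A match describes letters only and says nothing of binding.

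The WT1 probe set 206067_s_at had deposited ratios of 2.21, 3.14, 1.76 and 1.33 in the strong bone lines 1833, 2274, 2268 and 2269, against 0.633, 0.0969 and 0.262 in the weak bone lines 2293, 2295 and 2296. All strong lines were above all weak lines, and the probe set was dim on all 3 weak arrays. The log2 difference was 2.99 (SE 0.51, limma adjusted p = 0.00389, n = 4 against 3), at least 1.81-fold higher when the weak lines are set at their 40th percentile. The parental line, at 1.81, lay within the range of the strong lines.

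In lung lines the same probe set had ratios of 0.235, 0.349, 0.233 and 0.259 in the strong lines 4142, 4173, 4175 and 4180, against 5.98, 4.43 and 9.70 in the weak lines SCP21, SCP6 and SCP26. Here every weak line was above every strong line, and all 4 strong arrays were dim, with recovered signals of 5.5 to 8.6 in strong and 90.6 to 260.2 in weak lines. The log2 difference was -4.58 (SE 0.51, limma adjusted p = 0.000413), at least 1.65-fold lower. The bounds are small because the 40th percentile of an array lay between signals of 47.1 and 104.9, close to the level of WT1 where it was not dim.

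The second WT1 probe set, 216953_s_at, had ratios of 2.02, 3.87, 2.95 and 0.260 in strong bone lines and 1.22, 0.301 and 0.195 in weak bone lines, with a difference of 1.91 (SE 0.84, limma adjusted p = 0.173). Line 2269, at 0.260, lay among the weak lines. Of 7 fits that each left out 1 bone line, 1 passed, that without 2269 (2.77, limma adjusted p = 0.0153). The adjusted p of the other fits ran up to 0.437. In lung it had 1.14, 0.855, 0.403 and 0.462 in strong and 3.75, 2.80 and 4.27 in weak lines, a difference of -2.44 (SE 0.84, limma adjusted p = 0.103). The lung groups did not overlap, but the probe set was dim on all strong arrays and on those of SCP21 and SCP6, so no fold is given. Across the 19 arrays, centred within each set, the 2 WT1 probe sets correlated with r = 0.71.

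SNAI2 (SLUG), a SNAIL-family repressor of E-cadherin also known from neural crest migration, was higher in strong than in weak bone lines. Its probe set 213139_at, for the gene at chr8:48917598-48921429, had ratios of 1.19, 1.05, 1.08 and 0.891 in the strong bone lines 1833, 2274, 2268 and 2269, against 0.475, 0.449 and 0.439 in the weak bone lines 2293, 2295 and 2296. The groups did not overlap, and the 3 weak lines lay close together. The log2 difference was 1.20 (SE 0.34, limma adjusted p = 0.0444), 2.30-fold higher, with recovered signals of 550.1 to 652.9 in strong and 260.5 to 275.8 in weak lines. This call was lost when any 1 of 6 of the 7 bone lines was left out (adjusted p = 0.0871 to 0.119), while the difference stayed between 1.14 and 1.28. The call held without 2269 (adjusted p = 0.0477). The parental line had the highest ratio of its set, 2.002.

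In lung lines SNAI2 had ratios of 0.569, 0.715, 1.16 and 0.888 in strong lines, against 0.786, 2.59 and 1.11 in the weak lines SCP21, SCP6 and SCP26. The groups overlapped, and SCP6 was highest. The difference of -0.71 (95% interval -1.45 to 0.03, limma adjusted p = 0.255) did not pass the threshold.

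ZEB1, a zinc finger repressor of E-cadherin and of epithelial microRNAs, at chr10:31318417-31529804, had 3 probe sets and passed the threshold with none of them in either organ. Probe set 212758_s_at had ratios of 1.20, 1.15, 1.16 and 0.623 in strong bone lines and 0.535, 0.850 and 0.584 in weak bone lines. Line 2269 lay among the weak lines, and the difference was 0.64 (95% interval 0.07 to 1.20, limma adjusted p = 0.145). Of 7 fits that each left out 1 bone line, 1 passed, that without line 2269 (0.86, limma adjusted p = 0.0283). The adjusted p of the other fits ran up to 0.365. Probe set 210875_s_at had 0.876, 0.671, 1.14 and 1.12 in strong and 0.569, 0.532 and 0.676 in weak bone lines, overlapping only by lines 2274 and 2296, with a difference of 0.66 (SE 0.24, limma adjusted p = 0.104). Probe set 212764_at had 0.931 to 1.14 in strong and 0.816 to 0.970 in weak bone lines, which overlapped, with a difference of 0.22 (95% interval -0.20 to 0.63). In lung the 3 differences were 0.06, 0.25 and 0.12, with 95% intervals that together ran between -0.50 and 0.77 and with adjusted p of 0.597 to 0.922. The ZEB1 probe sets followed each other loosely, with r between 0.24 and 0.49 over the 19 arrays. The parental line had the lowest ratio of its set for 212758_s_at, 0.521, but 1.04 and 1.14 for the other 2 probe sets.

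SNAI1 (SNAIL), TWIST1 and PRRX1, 3 further inducers of EMT, passed no test. SNAI1, at chr20:49982980-49988886, was above the 40th percentile only in the weak bone line 2296 (ratio 5.0), the weak lung line SCP6 (6.11) and the parental line (3.89). Its differences were -1.29 (SE 1.04, limma adjusted p = 0.478) in bone and -0.80 (SE 1.04, limma adjusted p = 0.715) in lung, and with most arrays dim no fold is given. TWIST1, a basic helix-loop-helix factor of mesoderm at chr7:19113047-19117636, did not pass the filter, with ratios of 0.706 to 1.83 in strong and 0.515 to 2.78 in weak bone lines and 0.596 to 1.29 in strong and 0.876 to 1.19 in weak lung lines. PRRX1, a homeobox factor of limb mesenchyme at chr1:170662768-170739421, had 0.773 to 1.15 in strong and 0.626 to 1.46 in weak bone lines. Its bone difference was -0.02 (95% interval -0.67 to 0.63) and its lung difference 0.48 (95% interval -0.16 to 1.13, limma adjusted p = 0.391), with overlapping groups in both organs.

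CDH11 encodes cadherin-11, first described in osteoblasts, and lies at chr16:64943753-65123744. Both of its probe sets were higher in strong than in weak lung lines. Probe set 207173_x_at had ratios of 1.25, 1.28, 1.56 and 1.54 in the strong lines 4142, 4173, 4175 and 4180, against 0.279, 0.325 and 0.578 in the weak lines SCP21, SCP6 and SCP26. The 4 strong lines lay close together and above all weak lines. The log2 difference was 1.90 (SE 0.34, limma adjusted p = 0.00511), 3.74-fold higher, with recovered signals of 809.4 to 1097 in strong and 177.3 to 413.7 in weak lines. Probe set 207172_s_at had 1.07, 1.12, 1.43 and 1.53 in strong lines, against 0.0863, 0.422 and 0.702 in weak lines, again without overlap and with SCP21 lowest and dim. Its difference was 2.11 (SE 0.56, limma adjusted p = 0.0380), 4.32-fold higher. Without SCP21 this difference was 1.22, and the call was lost when any 1 of 6 of the 7 lung lines was left out (adjusted p = 0.0516 to 0.0920).

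In bone lines CDH11 did not differ past the threshold. Probe set 207173_x_at had ratios of 0.967, 1.43, 0.772 and 0.670 in strong lines and 1.81, 2.20 and 0.971 in weak lines. The groups overlapped only by lines 2274 and 2296, and the difference was -0.77 (95% interval -1.50 to -0.04, limma adjusted p = 0.172). Probe set 207172_s_at had 0.682 to 1.40 in strong and 0.874 to 1.78 in weak lines, with a difference of -0.46 (SE 0.56, limma adjusted p = 0.663). The parental line stood at 1.17 and 1.23 for the 2 probe sets, within the range of each group.

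CDH2 encodes N-cadherin, the cadherin of neural and mesenchymal cells, at chr18:27932879-28177130. Probe set 203441_s_at had ratios of 1.59, 1.94, 0.599 and 1.28 in strong and 1.12, 0.729 and 0.557 in weak bone lines, and 0.787, 0.815, 1.18 and 0.988 in strong and 1.69, 1.42 and 0.834 in weak lung lines. The groups overlapped in both organs, and the differences were 0.69 (95% interval -0.15 to 1.53, limma adjusted p = 0.289) in bone and -0.44 (95% interval -1.28 to 0.40, limma adjusted p = 0.564) in lung. The other probe set, 203440_at, was dim on all 19 arrays and did not pass the filter. It had ratios of 3.75, 3.20, 2.12 and 2.39 in strong and 0.604, 1.07 and 0.911 in weak bone lines, and 1.75, 2.34, 1.17 and 1.28 in strong and 0.588, 0.834 and 0.750 in weak lung lines. In both organs every strong line was above every weak line, which held for 4 of the 4848 probe sets that were dim on all arrays (0.0825%) and for 0.784% of all probe sets. In a fit with no filter the differences were 1.74 (SE 0.30, limma adjusted p = 0.00762) in bone and 1.14 (SE 0.30, limma adjusted p = 0.0604) in lung. No fold is given, since its signals stayed between 26.3 and 58.6 in strong lines and between 8.5 and 20.4 in weak lines, below the 40th percentile, and the pattern was singled out after its values were seen.

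VIM, the gene of vimentin, at chr10:17228241-17237593, was bright on every array, with recovered signals of 12135 to 35907. It had ratios of 1.19, 1.17, 1.498 and 1.02 in strong and 0.977, 1.11 and 0.844 in weak bone lines, with a difference of 0.32 (95% interval -0.18 to 0.81, limma adjusted p = 0.424). In lung it had 1.02, 1.29, 1.27 and 0.937 in strong lines, against 0.980, 0.667 and 0.519 in the weak lines SCP21, SCP6 and SCP26. The groups overlapped only by SCP21 and the strong line 4180, and the difference of 0.68 (95% interval 0.19 to 1.17, limma adjusted p = 0.0943) missed the threshold. Of 7 fits that each left out 1 lung line, 1 passed, that without SCP21 (0.93, limma adjusted p = 0.0289). The adjusted p of the other fits ran up to 0.240. Leaving out 4180, the other line of the overlap, gave 0.77 (limma adjusted p = 0.0963).

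**Figure D2:**
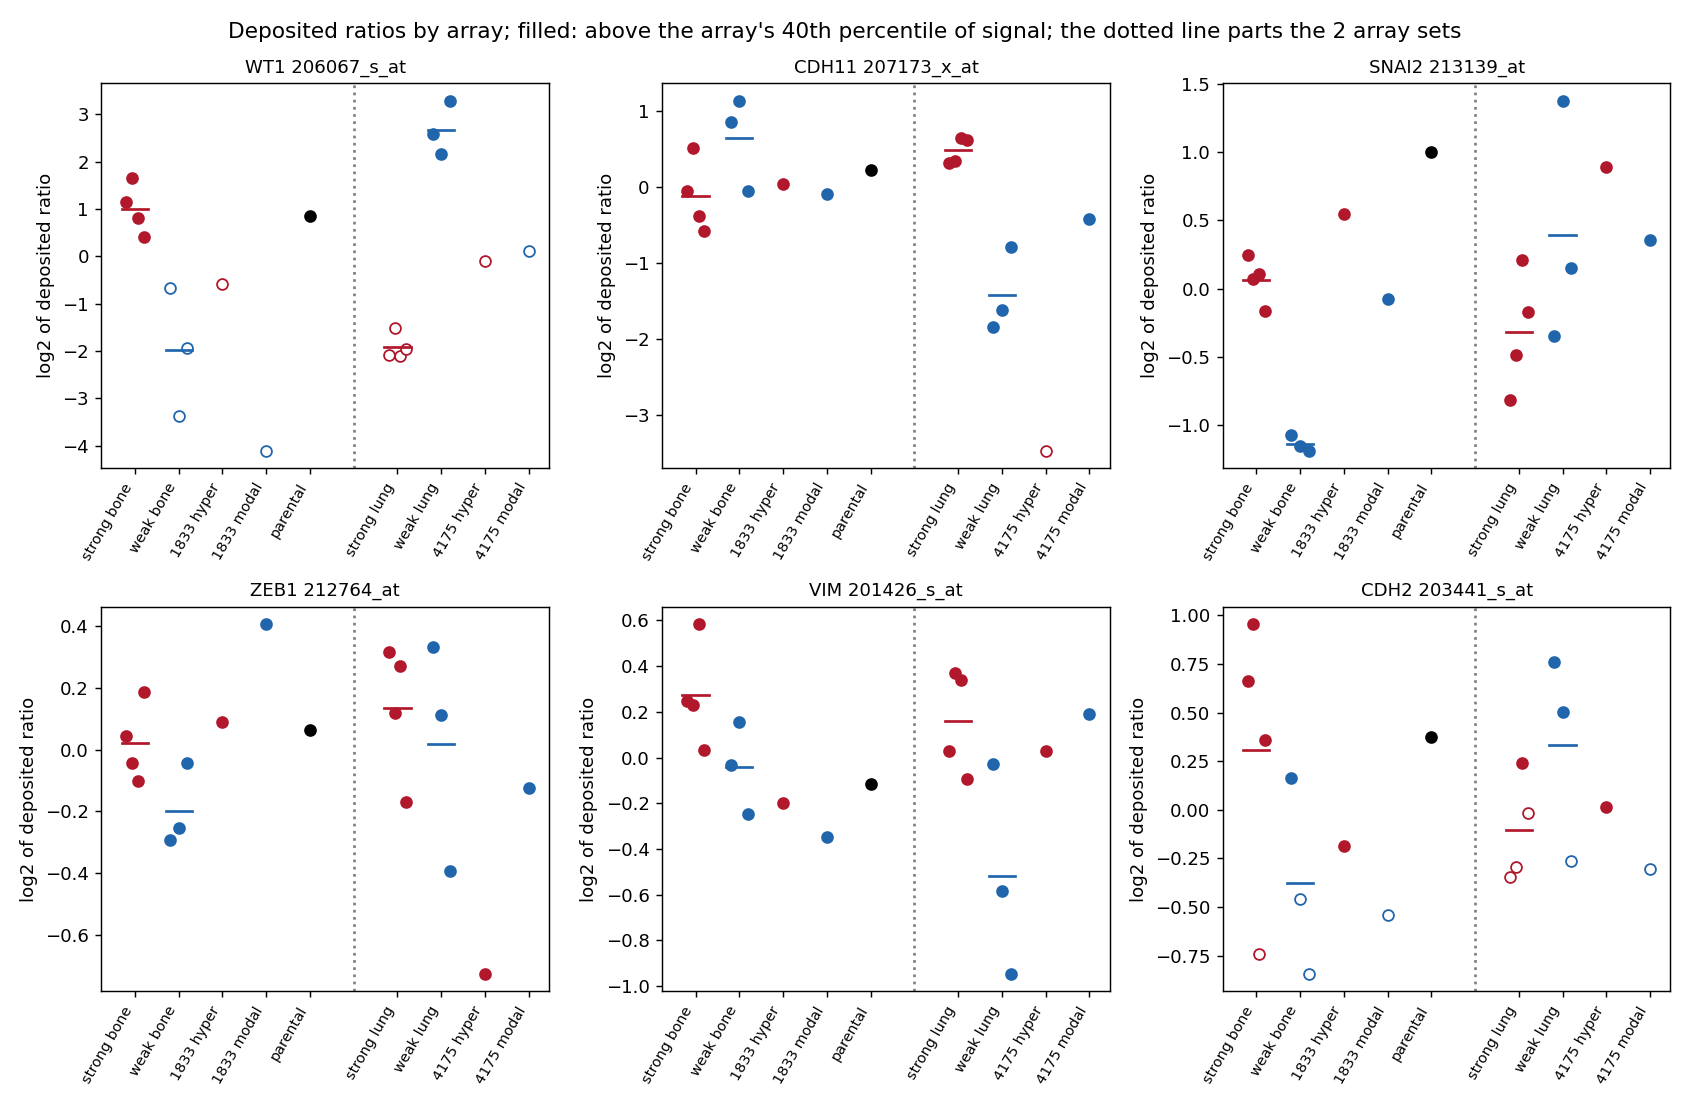
Log2 of the deposited ratio (y axis) for 6 of the member probe sets, 1 point per array, with the groups of each array set along the x axis, bars at the means of groups of 3 or more, red for strong lines and hyperploid sublines, blue for weak lines and modal-ploid sublines, black for the parental line, and open points for dim arrays. WT1 206067_s_at lies higher in strong than in weak bone lines and lower in strong than in weak lung lines, and CDH11 lies higher in strong than in weak lung lines. A dotted line parts the 2 array sets, across which ratios are not comparable.

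In bone, 2 of the 12 tested probe sets passed the threshold, SNAI2 and WT1 206067_s_at, both higher in strong lines, against 9.49% of all tested probe sets (5.9% higher and 3.59% lower). In lung 3 of the 12 passed, 2 higher (CDH11) and 1 lower (WT1), against 7.46% of all (2.92% higher and 4.53% lower). With so few members, chosen with earlier results of these data known, these shares are a description only. Of the 12, 6 in bone and 5 in lung had an unadjusted limma p under 0.05, against 25.7% and 21.7% of all tested probe sets. The groups did not overlap for 2 of the 12 in bone, where 26.6% of all probe sets did not (14.8% higher and 11.7% lower), and for 4 of the 12 in lung, where 18.9% did not (8.05% higher and 10.8% lower). The 4 in lung stand for 2 genes, with 2 probe sets of CDH11 (higher) and 2 of WT1 (lower). The share in bone, 2 of 12, was below the background. The median difference over all tested probe sets was 0.03 in bone and -0.00 in lung.

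**Figure D3:**
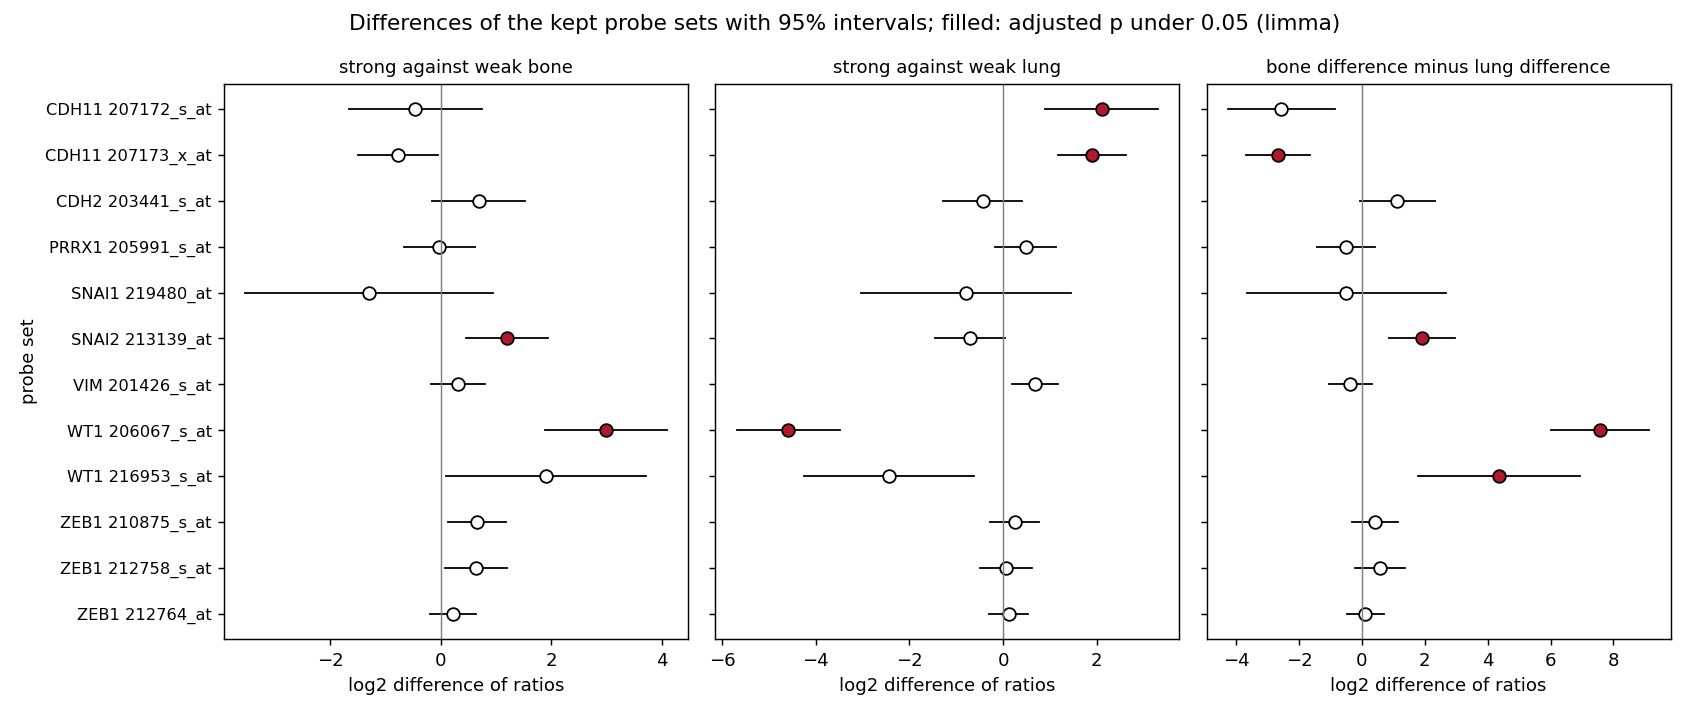
Log2 differences (x axis) of the 12 tested member probe sets with 95% intervals, for strong against weak bone lines, strong against weak lung lines, and the bone difference minus the lung difference. Filled points passed the threshold of limma adjusted p of 0.05. WT1 206067_s_at stands at 2.99 in bone and -4.58 in lung, and CDH11 207173_x_at at -0.77 in bone and 1.90 in lung.

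The difference between the organs was tested as the bone difference minus the lung difference in the same fit. It passed for 4 of the 12 probe sets, against 10.2% of all tested probe sets (6.32% higher and 3.86% lower). It was 7.58 (SE 0.72, limma adjusted p = 0.000136) for WT1 206067_s_at and 4.35 (SE 1.19, limma adjusted p = 0.0366) for WT1 216953_s_at. For SNAI2 it was 1.91 (SE 0.48, limma adjusted p = 0.0264), and for CDH11 207173_x_at it was -2.67 (SE 0.48, limma adjusted p = 0.00433). In each organ WT1 was dim in all lines of 1 of the groups, so the sizes of its differences rest on levels below the 40th percentile. WT1 and SNAI2 thus stood higher, and CDH11 lower, in the bone contrast than in the lung contrast. For CDH11 207172_s_at it was -2.57 (SE 0.79, limma adjusted p = 0.0575). Leaving out 1 line at a time cost WT1 216953_s_at its call in 11 of 14 cases (adjusted p up to 0.0896) and SNAI2 its call in 5 of 14 (adjusted p up to 0.0579). WT1 206067_s_at and CDH11 207173_x_at passed in all 14.

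In the hyperploid against modal-ploid comparison no member passed, and neither did any other probe set (0 of 16279, 0%, with 756 at an unadjusted p under 0.05 and a lowest limma adjusted p of 0.480). The design has 2 pairs and 1 residual degree of freedom. SNAI2 had ratios of 1.46 in the hyperploid and 0.948 in the modal-ploid subline of 1833, and of 1.85 in the hyperploid and 1.28 in the modal-ploid subline of 4175. It was higher in the hyperploid subline of both pairs, by 0.62 and 0.53 log2 units, and the mean difference of 0.58 (SE 0.27) did not pass (limma adjusted p = 1.0). Of all tested probe sets, 46.7% had the same sign in both pairs.

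CDH11 had opposite signs in the 2 pairs, with the larger difference in that of 4175. Probe set 207173_x_at had a ratio of 0.0904 in the hyperploid and 0.751 in the modal-ploid subline of 4175, against 1.56 in line 4175 itself. The hyperploid array was dim, and its level was at least 5.62-fold lower than that of the modal-ploid subline. Probe set 207172_s_at likewise had 0.0776 in the hyperploid and 0.930 in the modal-ploid subline, at least 2.73-fold lower. In the 1833 pair the 2 probe sets had 1.03 and 0.813 in the hyperploid subline and 0.939 and 0.731 in the modal-ploid subline, log2 differences of 0.13 and 0.15. The means over both pairs were -1.46 (SE 0.72) and -1.72 (SE 0.83), neither past the threshold (limma adjusted p = 1.0), and both include the dim hyperploid array. With a stricter filter, the 60th percentile on at least 3 arrays, both passed (limma adjusted p = 0.00129 and 0.00012), among 77 probe sets that passed. Fewer probe sets were tested under that filter. Their number is not given here, so no share stands beside this count. The differences themselves were the same under that filter, while the estimate of the variance and the probe sets adjusted over changed. As the 2 pairs had opposite signs, these p-values do not measure the spread between pairs. In the 4175 pair, 8.6% of probe sets differed by over 2-fold, as 5.99% did in the 1833 pair. That pair is 1 array against 1, with no replicate check.

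No other member passed in the ploidy pairs either. ZEB1 212764_at had 1.06 in the hyperploid and 1.32 in the modal-ploid subline of 1833, and 0.605 and 0.918 in those of 4175, a mean difference of -0.46. The other 2 ZEB1 probe sets had opposite signs in the pairs, 0.13 in 1833 and -0.54 in 4175 for 210875_s_at and 0.07 in 1833 and -0.43 in 4175 for 212758_s_at. VIM had 0.872 and 0.787 in the hyperploid and modal-ploid sublines of 1833 and 1.02 and 1.14 in those of 4175. Its pair differences thus had opposite signs. PRRX1 had 1.002 and 1.018 in the hyperploid and modal-ploid sublines of 1833 and 1.27 and 1.33 in those of 4175, and CDH2 203441_s_at had 0.880 and 0.688 in those of 1833 and 1.01 and 0.808 in those of 4175, with both modal-ploid arrays dim. SNAI1 and TWIST1 were dim in all 4 sublines. Both WT1 probe sets were dim in all 4 sublines. WT1 206067_s_at had ratios of 0.667 in the hyperploid and 0.0583 in the modal-ploid subline of 1833, against 2.21 in line 1833, which was not dim. WT1 216953_s_at had the opposite sign in that pair, with 0.592 in the hyperploid and 0.780 in the modal-ploid subline. In the hyperploid and modal-ploid sublines of 4175, 206067_s_at had 0.927 and 1.07, and 216953_s_at had 0.428 and 0.475.

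Likeness was measured as Pearson's r over the 19 arrays, centred within each array set, and the 2 probe sets of other genes with the highest r are named for each member probe set that passed a test. For SNAI2 these were BCKDHB, a subunit of an enzyme of branched-chain amino acid breakdown (0.89), and the chromatin remodeller SMARCA1 (0.89). For WT1 206067_s_at both were probe sets of CASK, a scaffold kinase of cell contacts (0.89 and 0.87). For WT1 216953_s_at they were the ubiquitin ligase MARCHF3 (0.86) and the nucleotide sugar transporter SLC35A3 (0.83). CDH11 207173_x_at was most like JAG1, a ligand of the Notch receptors (0.88), and the annotated MIR1244-3 (0.87), and CDH11 207172_s_at most like JAG1 (0.83) and G3BP2, a stress granule protein (0.79). JAG1 had a log2 difference of -0.07 in bone and 2.37 in lung. All 19 arrays share the parental line, and the values are descriptions without a test.

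Other genes of the EMT programme were counted on lists with 1 probe set per gene, the brightest. Over all tested probe sets, 9.49% passed in bone and 7.46% in lung, shares that are not limited to 1 probe set per gene. The lists were chosen with earlier results of these data known, so the counts are descriptions only. Among 21 further EMT transcription factors, 16 were on the array and 11 above the filter, and 2 passed as higher and 0 as lower in each organ, with medians of 0.27 in bone and 0.33 in lung. In lung SOX4, a SOX factor of TGF-beta induced EMT, rose by 5.63 log2 units (SE 0.54, limma adjusted p = 0.000174), at least 6.82-fold, and LEF1, a partner of beta-catenin, by 2.68 (SE 0.43, limma adjusted p = 0.00315). In bone SOX9 rose by 0.66 (SE 0.19, limma adjusted p = 0.0459), while TCF4, an E-box binding factor, passed at 2.28 (SE 0.58, limma adjusted p = 0.0268) with both groups dim, so that no rise can be bounded. SOX4 in bone stood at -1.74 (limma adjusted p = 0.0615). HMGA2, a chromatin factor upstream of SNAI1 and TWIST1, stood at -0.81 in bone and 0.78 in lung, neither past the threshold. Leaving out 1 bone line at a time cost SOX9 its call in 6 of 7 cases (adjusted p up to 0.167) and TCF4 in 4 (up to 0.113). ZEB2, FOXC2, KLF8, PRRX2 and TBX3 were dim on all 19 arrays.

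Of 28 mesenchymal markers 27 were on the array and 23 above the filter. In bone 3 rose and 4 fell (median -0.32), and in lung 5 rose and 1 fell (median 0.47). In bone the matrix proteins TGFBI (-3.86, SE 0.43, limma adjusted p = 0.000328) and FN1 (-2.02, SE 0.48, limma adjusted p = 0.0204), the collagen chain COL6A3 (-1.12) and the actin-binding CALD1 (-1.29) fell. The crosslinking enzyme LOX (1.61, SE 0.34, limma adjusted p = 0.0120), the fibrillin FBN1 (0.96) and the follistatin-like FSTL1 (0.59) rose there. Leaving out 1 bone line at a time cost FBN1 its call in 4 of 7 cases (adjusted p up to 0.107), FSTL1 in 5 (up to 0.147), FN1 in 2 (up to 0.0739), and COL6A3 and LOX in 1 each, without line 2295. In lung the matricellular SPARC rose by 5.71 (SE 0.78, limma adjusted p = 0.00121), at least 6.18-fold, as did COL6A1 (2.39), COL6A3 (1.78), COL6A2 (1.33) and COL1A1 (1.04), while CALD1 fell by 1.02. Leaving out 1 lung line at a time cost COL1A1 its call in 4 of 7 cases and COL6A2 in 3, whose difference was 0.86 without SCP21. FN1 and TGFBI stood at 1.04 and 1.12 in lung without passing. COL6A3 thus fell in strong bone lines and rose in strong lung lines, and CALD1 was lower in the strong lines of both organs.

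Of 22 further cadherins and catenins, 19 were on the array and 9 above the filter. In bone 0 passed as higher and 3 as lower (median -0.08), and in lung none passed (median 0.51). Those lower were the plakoglobin gene JUP (-3.04, SE 0.35, limma adjusted p = 0.000398), the beta-catenin gene CTNNB1 (-1.26, SE 0.20, limma adjusted p = 0.00264) and the muscle cadherin CDH15 (-1.77, SE 0.45, limma adjusted p = 0.0265). The CDH15 arrays of the strong lines were all dim, so that no fall can be bounded, and its call was lost in 3 of 7 cases when 1 bone line was left out (adjusted p up to 0.117). E-cadherin, CDH1, was on the array with 2 probe sets, neither above the 40th percentile on more than 1 array, so a loss of it between groups was not detectable here. P-cadherin (CDH3) was dim on all 19.

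Of 30 epithelial genes that EMT represses, 27 were on the array and 21 above the filter. In bone 1 rose and 4 fell (median -0.02), and in lung 0 rose and 1 fell (median 0.16). The periplakin gene PPL fell most in bone (-5.04, SE 0.39, limma adjusted p = 3.62e-05, at least 4.64-fold lower). The keratin KRT7 (-1.79), the claudin CLDN4 (-1.31) and the plakophilin PKP3 (-0.73) also fell there, and the sorting adaptor AP1M2 rose (2.09, SE 0.23, limma adjusted p = 0.000243). CLDN4 fell in lung as well (-1.82, SE 0.24, limma adjusted p = 0.00104). EPCAM stood at -0.16 in bone and 0.28 in lung and passed in neither.

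All 20 genes listed as TGF-beta inputs to EMT were above the filter, and 3 rose and 1 fell in bone and 3 rose and 2 fell in lung, with medians of -0.15 and -0.06. The signal transducer SMAD2 rose in bone (1.27, SE 0.19, limma adjusted p = 0.0021) and fell in lung (-1.18, SE 0.19, limma adjusted p = 0.00351). In bone its partner SMAD4 (1.08) and the ligand TGFB2 (1.15) rose too, and SMAD3 fell (-1.05, SE 0.21, limma adjusted p = 0.0099). In lung the latent TGF-beta binding protein LTBP1 (1.77), the co-receptor ENG (1.69) and the inhibitory SMAD6 (3.47, at least 1.12-fold) rose, and the repressor TGIF1 fell (-0.81). Leaving out 1 line at a time cost TGIF1 its call in 6 of 7 cases (adjusted p up to 0.144), ENG in 4 (up to 0.0751) and, in bone, TGFB2 in 2 (up to 0.0664).

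**Figure D4:**
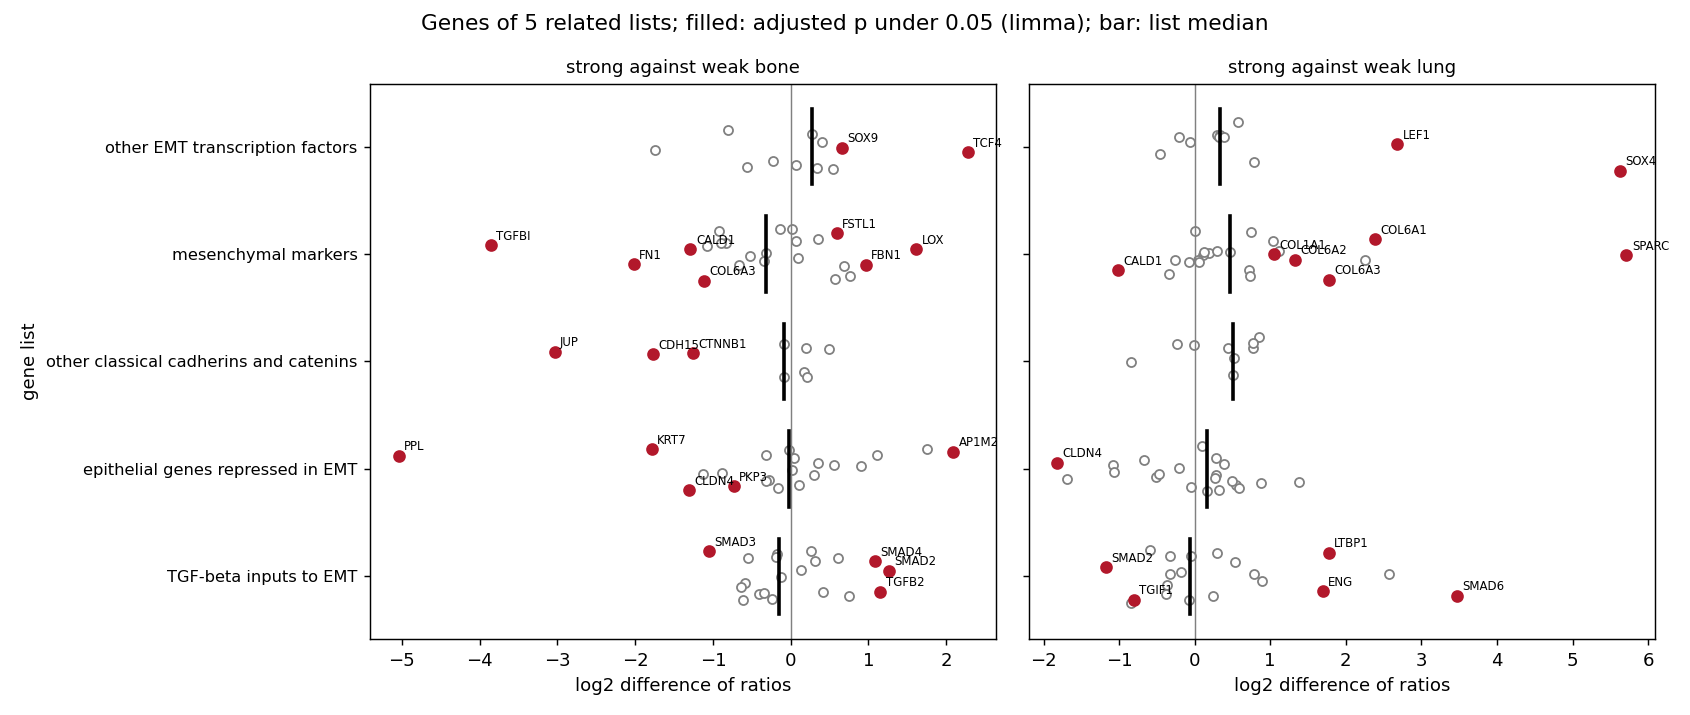
Log2 differences of the genes above the filter on the 5 EMT lists, 1 point per gene, for strong against weak bone lines and strong against weak lung lines, with filled points past the threshold of limma adjusted p of 0.05 and bars at list medians. The mesenchymal markers have a median of -0.32 in bone and 0.47 in lung, against 0.03 and -0.00 over all tested probe sets.

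The difference between organs itself passed for 7 of the 23 mesenchymal markers, against 10.2% of all tested probe sets (6.32% above 0 and 3.86% below 0). Of these, 1 was above 0 (LOX, 1.87) and 6 were below 0, given as the bone difference minus the lung difference. Among those below 0 were SPARC (-6.06), TGFBI (-4.98), COL6A1 (-3.23) and FN1 (-3.05). It passed for 3 of the 11 further transcription factors, all below 0, SOX4 (-7.37), LEF1 (-2.28) and HMGA2 (-1.59). Leaving out 1 line at a time cost LEF1 its call in 10 of 14 cases and LOX in 8. Of the cadherins and catenins it passed for 3 of 9, including JUP (-2.19), of the epithelial genes for 5 of 21, including PPL (-5.92), and of the TGF-beta genes for 7 of 20, including SMAD2 (2.45). No gene of the 5 lists passed between hyperploid and modal-ploid sublines. There the median was -0.41 for the epithelial genes and between -0.16 and 0.08 for the other 4 lists, against -0.01 over all tested probe sets.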

How the data were processed

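The authors' deposited values are linear ratios for 19 arrays, and the sources used here do not give the software or normalisation behind them. Within each of 2 array sets the ratios of nearly all probe sets were a whole number of 0.1 unit signal steps times an array factor over a probe set divisor, and signals were recovered for 22275 of 22283 in both sets (largest distance from a whole step 0.0493; 0.15% or less of 2000 shuffled probe sets). Signals served for the filter, for bounds, for display and for choosing the brightest probe set of each list gene. An alternative fit also used the log2 of the signals, while the main tests used the ratios. The number of arrays, and not a read depth, limits the precision.

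Tests used log2 of the deposited ratio in limma 3.58.1 (R 4.3.3, lmFit and eBayes) with 1 mean for each of the 4 strong and weak groups (14 lines, 10 residual degrees of freedom). Hyperploid and modal-ploid sublines were fitted with line of origin as a block, since the labels give the same line for both members of a pair. The 16279 probe sets whose signal passed the 40th percentile of the array in 2 or more of the 19 were tested, 68 control probe sets were left out, and p-values were adjusted by Benjamini-Hochberg over all tested probe sets with a threshold of 0.05. The annotation table gave 1 symbol for 19071 probe sets, several for 1043 and none for 2169, and only those with 1 were named. A bound ("at least") sets a group that was dim on every array at the higher of its own level and the 40th percentile. Every list gene that passed in bone or in lung was named, and for bone minus lung some of those that passed. A few genes that did not pass were named as well. These were not picked by size, and larger differences such as that of MMP2 in lung (2.26) were left out. The fit was also run on simulated data with independent normal noise, whose outcome is not given here, and no result rests on it. The members and lists were chosen with earlier results of these data known. Alternatives were other scalings, filters, variance models and sample sets, and leaving out each line.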

Additional observations from a re-analysis of the deposited data

Results flagged for a closer look

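The bone and lung contrasts of strong against weak lines differed by a test of the difference itself (bone minus lung, limma) for 4 probe sets. WT1 206067_s_at differed by 7.58 log2 units (2.99 in bone, -4.58 in lung) and WT1 216953_s_at by 4.35 (1.91 in bone, -2.44 in lung). SNAI2 differed by 1.91 (1.20 in bone, -0.71 in lung) and CDH11 207173_x_at by -2.67 (-0.77 in bone, 1.90 in lung). Spike-in levels also differed between bone and lung arrays, and their part in the result was not tested.

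A single line stood far from the other 3 of its group in 2 of 28 groups of 4 lines tested with Dixon's criterion, which chance gives in about 1 in 20 groups. ZEB1 212758_s_at had a ratio of 0.623 in the strong bone line 2269, against 1.15 to 1.20 in the other strong bone lines (gap over range 0.933). SNAI1 had a ratio of 4.65 in the strong lung line 4142, against 0.737 to 0.931 in the others (0.873), with all 4 arrays dim.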

How the results depend on the processing

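Of 704 alternative values of 48 member results, 659 stayed on the same side of the threshold, 34 lost a call, 11 gained one and 0 changed sign while past the threshold. The bone count of members was 1 with a stricter filter and 1 with a trended, robust variance, and 1 to 4 when single lines were left out (4 without 2269). SNAI2 in bone also lost its call with no filter (adjusted p = 0.0728). The lung count was 2 to 3, and that for bone minus lung 2 to 4. Over all probe sets, 747 to 1843 passed in bone (747 without 2293, 751 without 2295, 909 without 2296, 984 without 2274), 661 to 1370 in lung (661 without 4175, 668 without 4173) and 1027 to 2079 for bone minus lung (1027 without 2295). With 1 probe set per gene 1017, 795 and 1065 passed, and with the lung lines alone 468. In the ploidy pairs a stricter filter gave 77 probe sets and 2 members, both CDH11 (adjusted p = 0.00012 and 0.00129), and with 1 pair left out 0 to 5 passed (5 without the 1833 pair). With no block for the pairing by line of origin 0 passed, as with it. WT1 was below the stricter filter and has no value there. CDH11 207172_s_at in lung lost its call with quantile normalisation (0.0512), no filter (0.0648) and the lung lines alone (0.134), and WT1 216953_s_at for bone minus lung with no filter (0.0604). VIM in lung passed with the stricter filter (0.0481), and WT1 216953_s_at with the lung lines alone (0.0239). Of the list genes that passed, 11 of 21 in bone, 8 of 14 in lung and 17 of 25 for bone minus lung passed under every alternative in which they were measured, and 0 reversed. In bone the highest adjusted p was 0.167 for SOX9, 0.113 for TCF4, 0.0739 for FN1, 0.107 for FBN1, 0.147 for FSTL1, 0.117 for CDH15, 0.0664 for TGFB2, 0.0610 for COL6A3, 0.0512 for LOX and 0.0647 for CLDN4. In lung it was 0.0603 for COL1A1, 0.129 for COL6A2, 0.0964 for CALD1, 0.0751 for ENG, 0.0672 for SMAD2 and 0.167 for TGIF1, and for bone minus lung 0.113 for CLDN1, 0.0974 for SMAD6, 0.0713 for LEF1, 0.0681 for LOX, 0.0603 for PKP3, 0.0599 for CDH15, 0.0593 for TGFB2 and 0.0517 for TGFBR2. Signals near the 40th percentile limit what can be said of WT1, SNAI1, TWIST1 and CDH2.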
